A study of Mus musculus with 26 samples.

Results

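The cells described here are the *Kdr*-high endothelial cells (ECs) of the mouse choroid, the cells that the deposited cell annotation placed in cluster 2 of 13 at a clustering resolution of 0.8. They numbered 370 of the 3637 cells of the B6129PF1/J library (10.2%, exact 95% interval 9.21–11.2%) and 403 of the 3928 cells of the C57BL/6J library (10.3%), 773 of 7565 cells in all. The other ECs lay in cluster 3 (430 and 549 cells) and cluster 4 (63 and 72 cells). Throughout, paired values give the B6129PF1/J library first and the C57BL/6J library second.

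The choriocapillaris is the capillary bed that lies against the basement membrane of the retinal pigment epithelium (RPE) and supplies the photoreceptors and the RPE. Its ECs are fenestrated: their walls are pierced by pores closed with diaphragms built from PV1, the product of *Plvap*, and vascular endothelial growth factor (VEGF) from the RPE, acting on the receptor encoded by *Kdr*, keeps the bed in being. *Ihh* encodes Indian hedgehog, a secreted ligand that binds Patched on neighboring cells and so releases Smoothened and the GLI transcription factors.

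Single-cell RNA sequencing (scRNAseq) was done on RPE/choroid cells of mice at 3 months of age, with 1 library from the hybrid strain B6129PF1/J and 1 from the inbred strain C57BL/6J, each made from 1 male and 1 female mouse after sorting nucleated living cells (positive for Hoechst, negative for TO-PRO-3). Bulk RNA sequencing was done on RPE/choroid tissue of C57BL/6J mice aged 6 months, 12 weeks after tamoxifen, in 3 mice labelled wild type and 3 labelled Ihh iΔEC/ΔiEC, in which floxed *Ihh* was removed by a tamoxifen-inducible Cre driven by the EC promoter of *Cdh5*. The study's methods give tamoxifen and the Cre transgene to the wild-type (Ihh+/+) controls too. A further bulk set held ECs sorted after intravital VE-cadherin labelling from B6129PF1/J mice aged 1 month, in 3 isolations per tissue, with animals pooled for the eye tissues.

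Levels were UMIs (unique molecular identifiers, each marking 1 captured transcript) of a gene summed over the cells of a cluster in a library, per 10,000 UMIs of those cells. With 1 library per strain, and clusters that were built from the same genes, no test of a cluster or strain difference was made. The intervals cover counting error only, not the spread between cells or between mice. Within *Kdr*-high ECs the sums were 1905149 and 1826157 UMIs, the median cell held 4232.5 and 3460 UMIs, and the median share of mitochondrial UMIs was 1.79% and 2.07%. The libraries shared 22 cell barcodes, 0 of them in cluster 2 of both, and 2 and 4 *Kdr*-high ECs held both *Xist* and Y-linked UMIs, as a doublet of a male and a female cell would. Another 90 and 112 held neither, and doublets of the same sex cannot be seen this way, so these counts give no doublet rate.

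*Kdr*-high ECs were set apart from both other EC clusters by the 5 genes that name them, and 4 of these passed a limit of 2-fold over both clusters in each library. *Kdr*, the main VEGF receptor of ECs, stood at 16.4 (15.9–17.0) and 14.01 (13.5–14.6) UMIs per 10,000 in *Kdr*-high ECs, at 8.86 and 6.27 in cluster 3 and at 0.611 and 0.907 in cluster 4. Its excess over cluster 3 was thus 1.86-fold (1.76–1.96) and 2.23-fold (2.101–2.378), below the limit in the first library. With each cell thinned to 1700 UMIs the lowest of these marker ratios, again that of *Kdr* in the B6129PF1/J library, was 2.83, and with every cell weighted alike it was 2.58.

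*Plvap* was at 73.8 and 78.0 UMIs per 10,000 in *Kdr*-high ECs, at 28.8 and 28.0 in cluster 3 and at 2.02 and 3.17 in cluster 4, an excess over cluster 3 of 2.56-fold and 2.78-fold. *Ihh* was at 3.20 and 3.36, against 0.974 and 0.609 in cluster 3, and had no UMI in cluster 4 of either library. The *Ihh* ratio to cluster 3 was 3.29 (2.82–3.84) and 5.52 (4.64–6.59). It was 6.68 and 5.75 when cells of any cluster with at least 2 marker genes of another lineage were left out. Of the 5 markers *Esm1*, which encodes the secreted proteoglycan endocan, had the largest ratio to cluster 3, with 5.61 and 6.81 UMIs per 10,000 against 0.995 and 0.954, or 5.64-fold and 7.14-fold. *Car8*, a relative of the carbonic anhydrases that lacks their catalytic activity, stood at 10.4 and 12.2 against 3.54 and 4.29, or 2.93-fold and 2.85-fold. Because the clusters were built from the same genes, these levels describe the cells and are no test of their identity. The sequencing gives no position within the choroid.

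**Figure D1:**
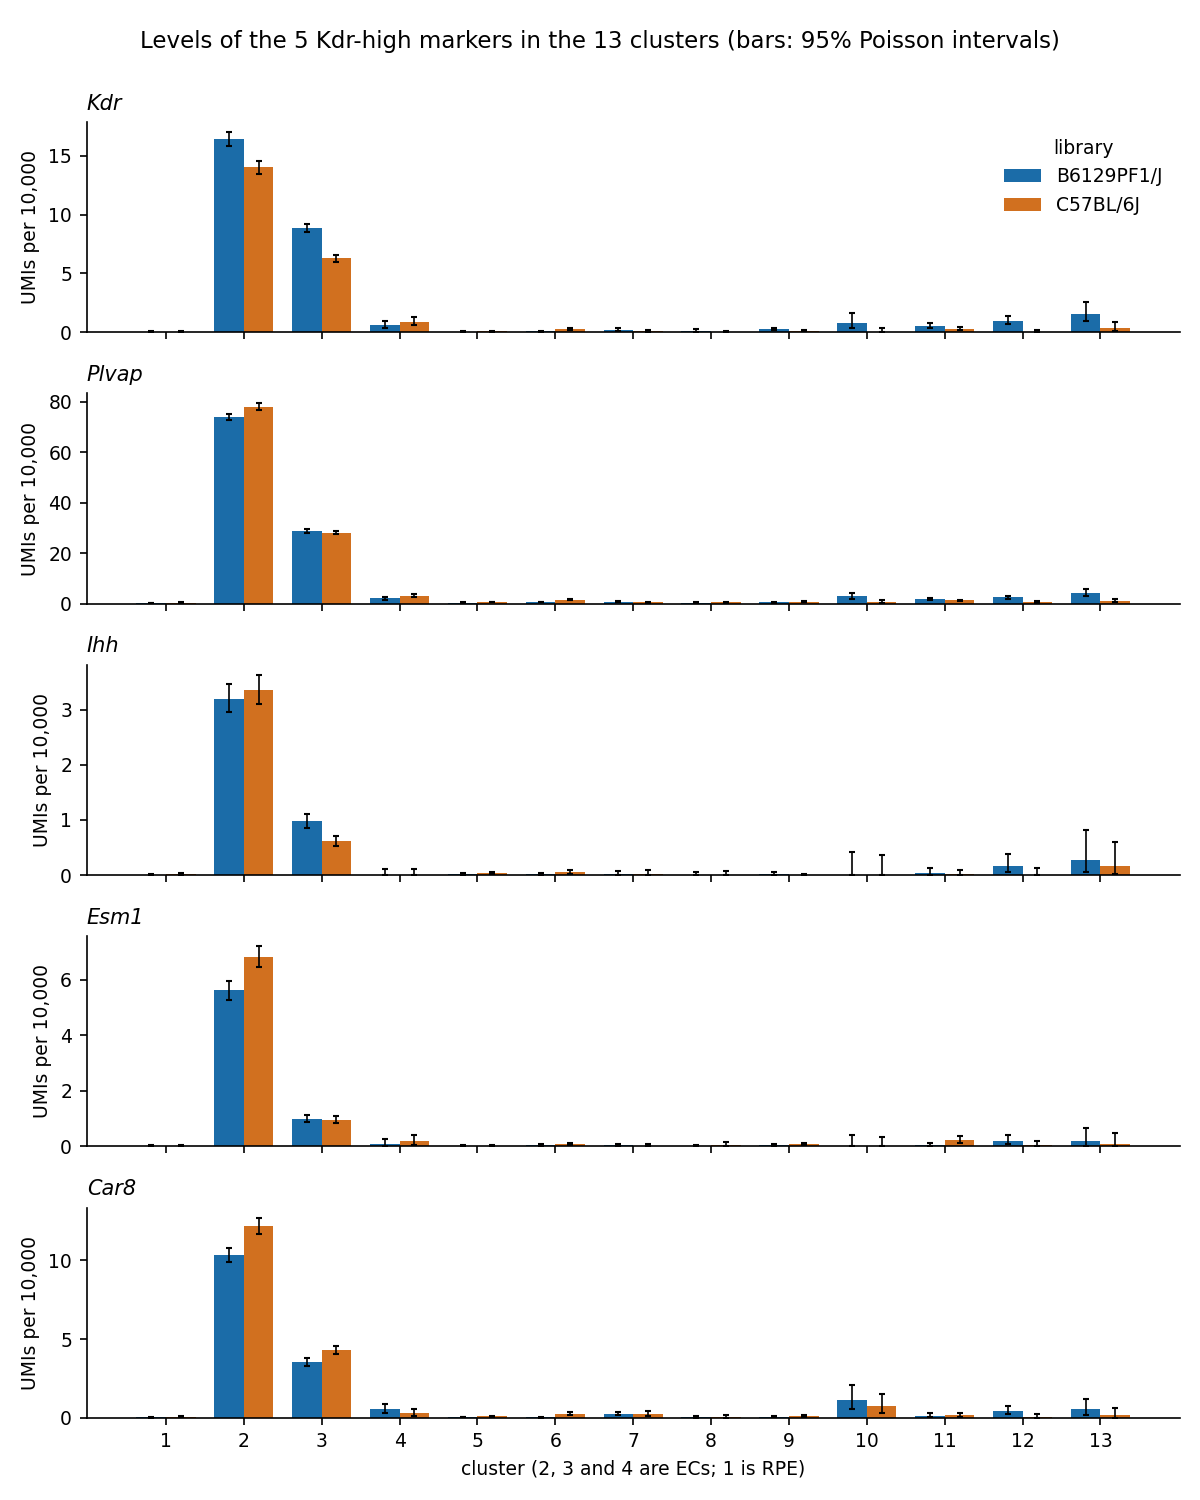
UMIs per 10,000 (linear axes from 0) of the 5 markers in each of the 13 clusters (x axis), with the B6129PF1/J and C57BL/6J libraries side by side and exact 95% Poisson intervals as error bars. Cluster 2 is the highest for every marker in both libraries and cluster 3 comes second, with *Kdr* at 16.4 and 14.01 in cluster 2 against 8.86 and 6.27 in cluster 3.

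Cell by cell the markers overlapped. All 5 were detected in 180 of 370 cells (48.6%) and 166 of 403 cells (41.2%), at least 4 in 85.9% and 78.9%, and no more than 2 in 5 and 8 cells. In cluster 3 all 5 were detected in 10.0% and 7.10% of the cells, and in cluster 4 in 0. Thinned to 1700 UMIs per cell, the shares with all 5 were 18.1% and 15.4% in *Kdr*-high ECs and 0.698% and 0.364% in cluster 3.

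At least 1 *Kdr* UMI was seen in 98.4% and 95.5% of *Kdr*-high ECs (91.6% and 85.9% after thinning), against 3.19% and 2.14% of RPE cells (cluster 1), which should lack the gene. The RPE cells had a median of 5263 and 3406 UMIs. *Ihh* was detected in 64.6% and 60.3% of *Kdr*-high ECs, in 41.9% and 39.5% after thinning, and in 0.246% and 0.535% of RPE cells. For *Esm1* the shares were 74.6% and 66.7% (51.6% and 51.4% thinned), against 1.72% and 1.34% of RPE cells. *Plvap* was detected in 100% of *Kdr*-high ECs and also in 17.0% and 15.8% of RPE cells, so that a share of cells says less for this gene than its level does. *Car8* was detected in 95.7% and 95.5%, against 1.72% and 2.41% of RPE cells.

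Because the markers define the cells, the stretch around the transcription start of 3 of them is shown, taken from RefSeq promoter sequences of build GRCm38.p6 (250 bases before the start and 50 after, on the strand of the gene). *Kdr* lies at chr5:75932827-75978458 on the minus strand, *Ihh* at chr1:74945315-74951672 on the minus strand and *Esm1* at chr13:113209659-113218098 on the plus strand (GENCODE M21). The windows are chr5:75978406-75978705, chr1:74951623-74951922 and chr13:113209409-113209708. Capitals mark matches to an ETS core (GGAAG or its complement CTTCC), a forkhead motif (TGTTTAC or GTAAACA), a hypoxia response core (ACGTG or CACGT) and a TATA box (TATAAA or TTTATA), searched on both strands.
Kdr promoter: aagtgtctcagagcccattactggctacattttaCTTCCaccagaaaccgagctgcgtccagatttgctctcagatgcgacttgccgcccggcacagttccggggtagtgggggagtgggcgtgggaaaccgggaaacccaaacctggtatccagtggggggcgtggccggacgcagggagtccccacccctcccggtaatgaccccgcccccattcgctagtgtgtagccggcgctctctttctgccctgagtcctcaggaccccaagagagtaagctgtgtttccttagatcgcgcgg
Ihh promoter: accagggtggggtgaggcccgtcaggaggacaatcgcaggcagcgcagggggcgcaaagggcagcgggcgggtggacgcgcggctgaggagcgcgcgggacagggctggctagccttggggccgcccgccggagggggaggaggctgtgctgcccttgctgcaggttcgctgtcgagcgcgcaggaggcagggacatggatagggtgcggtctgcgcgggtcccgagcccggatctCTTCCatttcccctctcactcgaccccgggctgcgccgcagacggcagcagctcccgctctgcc
Esm1 promoter: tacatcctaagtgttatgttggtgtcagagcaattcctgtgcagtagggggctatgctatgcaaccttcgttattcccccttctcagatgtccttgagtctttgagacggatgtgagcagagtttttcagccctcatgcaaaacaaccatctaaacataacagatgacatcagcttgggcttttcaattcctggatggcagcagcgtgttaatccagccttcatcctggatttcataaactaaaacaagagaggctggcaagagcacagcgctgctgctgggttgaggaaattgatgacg
The *Kdr* and *Ihh* windows each hold 1 ETS core and none of the other motifs, and the *Esm1* window holds none of the 4. An ETS core is common: it is found in 71.4% of all 32851 RefSeq promoters searched, and the match is a description of the letters and not a binding site. Among the 97 genes at least 2-fold higher in *Kdr*-high ECs (below), promoters were matched for 79 genes, and 75.7% of their 103 promoters held an ETS core, 6.80% the forkhead motif (3.65% of all promoters), 21.4% the hypoxia core (19.6%) and 9.71% a TATA box (13.6%).

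Beyond the markers, 97 of 7560 genes tested (1.28%) were at least 2-fold higher in *Kdr*-high ECs than in both other EC clusters in each library, and 163 (2.16%) were at least 2-fold lower than in both. A gene was tested where it had at least 50 UMIs over the 3 EC clusters in each library. The genes nearest the limit were *Dnajc12* at 2.01-fold and *Fam110a* at 2.02-fold inside it, and *Tnfrsf26* and *Ifngr2*, each at 1.99-fold, outside it. The median log2 ratio over all genes tested was 0.01 and 0.04 against cluster 3, and 0.05 and 0.09 against cluster 4.

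Cluster 3 lay between the other EC clusters for 91 of the 97 higher genes in each library, and for 106 of the 163 lower genes. For 30 of the lower genes cluster 3 was instead above cluster 4. The rule had put cluster 2 at an end of the order for all these genes, so only the order of clusters 3 and 4 was free. That order was not counted over all genes. A count of 0 in cluster 4 was taken as below any count in cluster 3. Against all 12 remaining clusters, ECs or not, 37 of 11193 genes (0.331%) were at least 2-fold higher in *Kdr*-high ECs in each library, and all 37 were among the 97. Of the 97, which the rule chose as high in *Kdr*-high ECs, 48 had their highest level of all clusters there in both libraries. When cells with at least 2 marker genes of another lineage were left out, 9 genes were above every other cluster by this limit. Of these, 8 were among the 37. That recount kept 2095 of 3637 and 2733 of 3928 cells, so the other clusters were smaller too. A count of 0 set to 3 weighs more in a smaller cluster, and its part in the lower number was not tested. After thinning, 97 genes were at least 2-fold lower in place of 163, of which 80 were shared. The genes at least 2-fold higher than both other EC clusters then numbered 92, of which 62 were among the 97 higher genes. Without the cells holding markers of another lineage they numbered 105, of which 73 were among the 97 higher genes.

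Among the 20 genes with the largest excess over the other ECs were several receptors and signaling genes. *Tbxa2r*, the receptor for the vasoconstrictor thromboxane A2, was at 6.31 (5.96–6.68) and 4.42 (4.12–4.73) UMIs per 10,000 in *Kdr*-high ECs, against 1.65 and 1.08 in cluster 3, or 3.82-fold and 4.11-fold. It was detected in 90.3% and 74.2% of the cells, and in 1.47% and 1.07% of RPE cells. *Cd300lg*, an EC surface receptor also called nepmucin, was at 5.68 and 4.64 against 1.33 and 1.20, or 4.26-fold and 3.86-fold. In cluster 4 it had 0 UMIs in the B6129PF1/J library and 0.0604 per 10,000 in the C57BL/6J library. Both receptor genes were thus higher in *Kdr*-high ECs than in any other cluster of either library.

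*Adora2a*, a receptor gene for adenosine, was scarcer, at 0.551 and 0.405 UMIs per 10,000. It was 3.91-fold and 3.35-fold (1.26–12.6) above the higher of the other EC clusters, the wide second interval resting on 4 UMIs in cluster 4. *Kcnk5*, a potassium channel of the background leak type, was at 0.446 and 0.438, or 3.36-fold and 4.07-fold above. *Dapk2*, a calmodulin-regulated kinase, was at 0.352 and 0.476, or 4.71-fold and 3.89-fold above, and *Rhod*, a small GTPase gene, at 0.373 and 0.323, or 3.46-fold (2.18–5.65) and 3.00-fold (1.89–4.86) above.

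Genes for secreted peptides were also in the group. *Nmb*, which encodes the peptide neuromedin B, was at 4.41 and 2.03 UMIs per 10,000 against 1.40 and 0.494 in cluster 3, or 3.16-fold and 4.12-fold. *Ntf3*, encoding the neurotrophin NT-3, was at 1.54 and 1.26 against 0.435 and 0.323, or 3.53-fold and 3.90-fold. Both were at their highest among ECs in cluster 2, and *Nmb* was also at least 2-fold above every non-EC cluster.

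Among genes of metabolism and transport, *Hilpda*, a hypoxia-inducible protein of lipid droplets, was at 6.00 and 7.11 UMIs per 10,000 against 1.77 and 1.54 in cluster 3, or 3.40-fold and 4.60-fold. *Car4*, a membrane-anchored carbonic anhydrase, was at 0.525 and 1.07, or 3.96-fold and 3.57-fold over the higher other EC cluster, and was detected in 12.7% and 17.1% of the cells. *Slc1a1*, a glutamate transporter, was 3.88-fold and 4.40-fold above the other ECs at 0.787 and 1.06, but RPE cells held more of it, 4.13 and 5.33. *Pdia5*, a protein disulfide isomerase of the endoplasmic reticulum, was at 5.66 and 6.27, or 3.26-fold and 3.78-fold above the other ECs. *Impdh1*, an enzyme of guanine nucleotide synthesis named here because it passed against every cluster, was at 3.07 and 3.79, or 2.89-fold and 3.28-fold above the other ECs.

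The remaining genes of the 20 were *Fam167b* (12.7 and 9.87 UMIs per 10,000, 3.07-fold and 3.12-fold above), *Proser2* (4.06-fold and 3.44-fold), *Fam101a*, a filamin-binding protein gene (3.18-fold and 3.86-fold), *Arid3a*, a transcription factor gene (3.71-fold and 3.23-fold), and *Dlk1* and *Meg3*, which are described below with the cells that hold them.

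**Figure D2:**
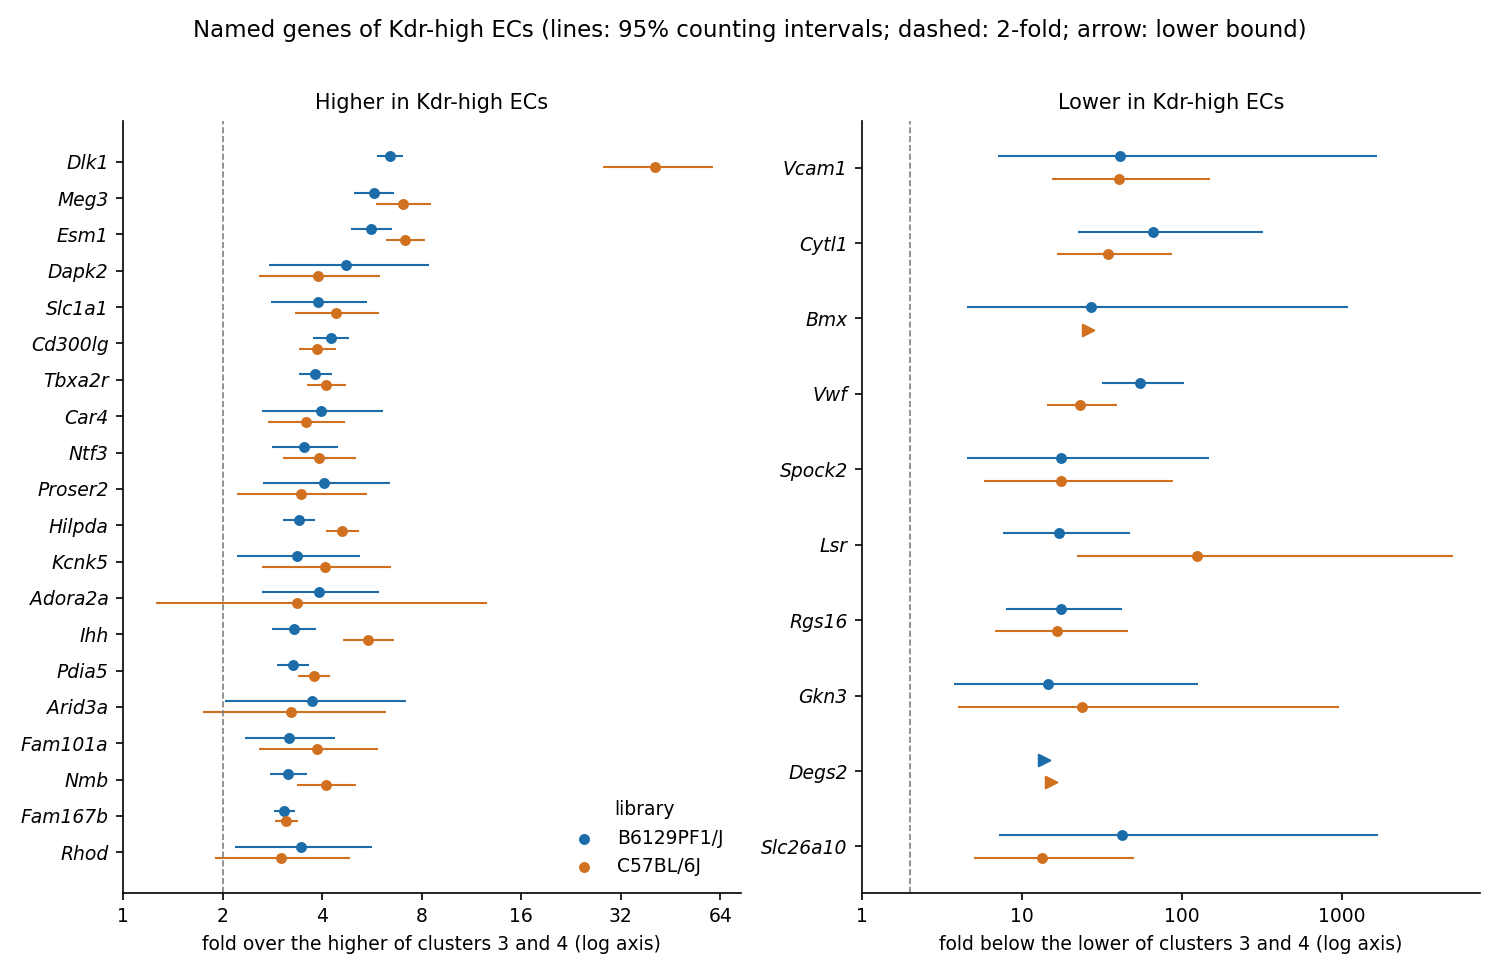
Ratio of *Kdr*-high ECs to the nearer of the other EC clusters (log axis) for the 20 genes with the largest excess and the 10 with the largest deficit, each with a point per library, lines for 95% counting intervals and arrows for lower bounds where *Kdr*-high ECs had 0 UMIs. Among the 20 genes with the largest excess, *Dlk1* stands furthest apart between libraries, at 6.41-fold and 40.7-fold. Intervals are wide on the lower side, where *Kdr*-high ECs held few UMIs.

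The genes that were lowest in *Kdr*-high ECs, relative to the other ECs, included *Vwf* and *Vcam1* and the arterial genes *Bmx* and *Gkn3*. *Vwf*, the clotting factor carrier stored by ECs of larger vessels, had 14 and 21 UMIs in *Kdr*-high ECs, or 0.0735 and 0.115 per 10,000, against 4.16 and 2.98 in cluster 3 and 4.03 and 2.66 in cluster 4. It was 54.9-fold (31.6–103) and 23.1-fold (14.2–39.2) below the lower of the other clusters. *Vcam1*, an adhesion receptor for leukocytes, had 1 and 4 UMIs, with ratios of 41.1 (7.05–1650) and 40.2 (15.5–149). Against cluster 4 it was lower still, since cluster 4 held 2.66 and 8.52 per 10,000.

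*Bmx*, a kinase gene of arterial ECs, had 1 UMI and 0 UMIs, a ratio of 26.8 (4.50–1091) and a level at least 25.98-fold lower, the latter taking a count of 0 as up to 3. *Gkn3*, a marker of arterial ECs in brain, had 2 UMIs and 1 UMI, with ratios of 14.6 and 23.7. *Mgp*, an inhibitor of calcification and of BMP signaling, was better counted, at 3.04 and 4.88 per 10,000 against 47.2 and 36.3 in cluster 3, or 15.5-fold and 7.43-fold lower. The secreted protein gene *Cytl1* had 3 and 7 UMIs, with ratios of 65.8 (22.3–321) and 34.4 (16.5–86.1), and the tricellular junction gene *Lsr* had 6 UMIs and 1 UMI, with ratios of 17.0 and 124 (21.98–4925).

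*Rgs16*, a regulator of G protein signaling, had 9 and 7 UMIs and was 17.5-fold and 16.6-fold lower. *Spock2*, an extracellular proteoglycan gene, had 2 and 3 UMIs (17.4-fold and 17.6-fold lower), and *Slc26a10*, of the anion transporter family, had 1 and 4 (41.8-fold and 13.4-fold). *Degs2*, of sphingolipid synthesis, had 0 in both and was at least 13.7-fold and 15.1-fold lower. These counts are small, so the size of each ratio is loosely set, and the rule that named the genes required the same direction in both libraries.

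The VEGF system differed between its receptors. Of 7 genes tested in this list 0 were 2-fold higher and 1 was 2-fold lower. Over all genes tested, 1.28% were 2-fold higher and 2.16% were 2-fold lower, the background for this list and those that follow. *Flt1*, a decoy receptor for VEGF, was at 15.7 and 14.4 UMIs per 10,000 in *Kdr*-high ECs and at 16.5 and 13.9 in cluster 3, close to each other in both libraries. The coreceptor gene *Nrp1* was higher in *Kdr*-high ECs (18.5 and 16.2 against 11.9 and 8.23) and *Nrp2* lower (1.46 and 1.08 against 2.26 and 1.73). *Flt4*, better known from lymphatic ECs, was at 1.36 and 1.08 against 0.904 and 0.635. *Vegfc*, the ligand of the *Flt4* product, had 3 and 7 UMIs and was 13.9-fold (4.52–69.8) and 7.26-fold (3.36–18.7) below cluster 3, and was highest in cluster 4 at 1.47 and 2.69 per 10,000.

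Of 10 fenestra and caveola genes only *Plvap* was 2-fold higher, and 0 were 2-fold lower. The caveolar coat genes *Cav1* and *Ptrf* were lower in *Kdr*-high ECs than in both other clusters, *Cav1* at 1.93 and 1.53 against 3.05 and 3.38 in cluster 3, and *Ptrf* at 1.60 and 2.44 against 3.56 and 3.76. *Cav2* was higher, at 4.99 and 5.43 against 3.46 and 3.96, as was *Ehd4*, a membrane-shaping ATPase gene, at 14.7 and 16.2 against 8.82 and 10.1. The list median was near that of all genes, at 0.28 and −0.02 (log2) against cluster 3.

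Of 17 Hedgehog pathway genes only 3 had enough UMIs in ECs to be tested, and *Ihh* was the only one that was 2-fold higher, with 0 lower. The median of those 3 against cluster 3 was −1.45 and −0.64.

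Genes of arterial and venous identity were mostly lower in *Kdr*-high ECs. Of 14 arterial genes 8 were below both other EC clusters in each library, against 19.3% of all genes tested, 0 were 2-fold higher and 4 were 2-fold lower (*Sox17*, *Bmx*, *Gkn3* and *Fbln5*), and the median against cluster 4 was −2.71 and −2.88. The transcription factor gene *Sox17* was at 0.367 and 0.394 UMIs per 10,000, at 2.57 and 3.06 in cluster 3 and at 10.1 and 10.5 in cluster 4. The gap junction gene *Gja4* was at 0.777 and 0.465, near cluster 3 (0.974 and 0.735) and below cluster 4 (5.04 and 3.96). Of 7 venous genes 4 were below both, 0 were 2-fold higher and 3 were 2-fold lower (*Vwf*, *Vcam1* and *Tmem252*), with a median against cluster 3 of −4.61 and −4.04. *Nr2f2*, the venous transcription factor gene, was at 0.115 and 0.137, at 0.904 and 0.560 in cluster 3 and at 0.183 and 0.302 in cluster 4.

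Of 12 tip cell and angiogenesis genes 2 were 2-fold higher, *Esm1* and *Plaur*, and 0 were lower, with a median against cluster 3 of 0.57 and 0.54. *Plaur*, the urokinase receptor, was at 2.15 and 2.11 against 0.783 and 0.961. *Angpt2*, the ligand that loosens vessels by blocking Tie2, was at 0.415 and 0.805 against 0.211 and 0.371, with 0 UMIs in cluster 4. Of 12 pan-endothelial genes 0 passed in either direction, with a median of 0.33 and 0.28 against cluster 3. Among these, *Emcn*, a mucin of capillary and venous ECs, was higher (34.5 and 34.7 against 17.0 and 18.05), past the limit in the first library and short of it in the second, and *Eng*, a coreceptor for TGF-β ligands, was at 21.4 and 20.5 against 13.7 and 12.996. *Cldn5*, the main tight junction claudin of ECs, was at 23.2 and 21.2, near cluster 3 (18.8 and 25.1) and below cluster 4 (49.6 and 49.4). *Pecam1* was lower, at 0.720 and 0.701 times its level in cluster 3 and 0.347 and 0.318 times that in cluster 4. *Cdh5* was at 0.862 and 0.912 times cluster 3 and 0.897 and 0.902 times cluster 4. Of the 12 genes 6 were above and 3 below both other EC clusters in each library (1893 and 1458 of all 7560 genes tested).

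Barrier genes were mostly lower. Of 11 blood-brain and blood-retina barrier genes 8 were below both other EC clusters in each library (19.3% of all genes tested), 0 were 2-fold higher and 5 were 2-fold lower (*Slc2a1*, *Tjp1*, *Lef1*, *Foxq1* and *Lsr*), with a median against cluster 3 of −1.38 and −1.53. *Slc2a1*, the glucose transporter GLUT1 of barrier vessels, was at 0.646 (0.537–0.770) and 1.46 (1.29–1.65) UMIs per 10,000, against 8.58 and 11.8 in cluster 3 and 15.8 and 13.4 in cluster 4. RPE cells, which also carry GLUT1, held 8.49 and 8.53. *Lef1*, an effector of Wnt signaling, was at 0.278 and 0.312 against 1.40 and 1.83 in cluster 3, and *Tjp1*, the junction scaffold ZO-1, at 0.430 and 0.378 against 1.12 and 1.01. Of 13 junction genes 0 were higher and 2 were lower (*Jam2* and *Tjp1*). Of 10 Wnt and Norrin pathway genes 0 were higher and 2 were lower (*Lef1* and the receptor gene *Fzd6*).

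Vasomotor genes went both ways. Of 17 tested 3 were 2-fold higher (*Ednrb*, *Tbxa2r* and *Ramp3*) and 2 were 2-fold lower (*Edn1* and *Ptgis*), with a median of −0.10 and −0.12 against cluster 3. *Ednrb*, the endothelin B receptor, was at 7.87 (7.47–8.28) and 6.47 (6.11–6.85) against 2.65 and 1.64 in cluster 3, and cluster 10, which holds no ECs, had more (18.5 and 17.2). *Edn1*, the gene of its ligand endothelin-1, was at 0.268 and 0.126, against 3.03 and 3.04 in cluster 3, 11.3-fold (8.53–15.4) and 24.1-fold (15.97–38.3) lower. Receptor and ligand thus stood on opposite sides of the other ECs. *Ramp3*, which turns the calcitonin-like receptor into an adrenomedullin receptor, was at 12.6 and 8.98 against 5.68 and 4.07, and *Ptgis*, prostacyclin synthase, at 0.0315 and 0.0438 against 0.464 and 0.572.

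Of 8 lipid handling genes 2 were 2-fold higher, *Gpihbp1* and *Cd300lg*, and 1 was lower, *Fabp4*. *Gpihbp1*, which carries lipoprotein lipase to the capillary lumen, was at 1.13 and 2.50 against 0.506 and 1.09 in cluster 3, or 2.23-fold and 2.29-fold. *Fabp4*, a fatty acid binding protein of capillary ECs, was at 0.220 and 0.783 against 1.62 and 4.35, and was detected in 3.24% and 2.23% of the cells. Of 16 transport genes *Car4* and *Car8* were higher and *Slc2a1*, the prostaglandin transporter gene *Slco2a1* and the glutamine synthetase gene *Glul* were lower. *Glul* stood at 1.20 and 1.41, against 3.24 and 3.38 in cluster 3 and 19.1 and 17.9 in cluster 4.

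Matrix genes split by kind. Of 15 basement membrane genes 0 passed in either direction, with a median of 0.88 and 0.81 against cluster 4. In each library 9 of the 15 were above both other EC clusters and 3 below both (1893 and 1458 of all 7560 genes tested). Of 10 genes of elastic fibers and perivascular matrix 1 was 2-fold higher (*Emilin1*, 0.703 and 1.07 against 0.211 and 0.353 in cluster 3) and 6 were 2-fold lower (*Eln*, *Fbln2*, *Fbln5*, *Ltbp4*, *Mgp* and *Cytl1*), with a median of −3.88 and −3.78 against cluster 4. Elastin itself (*Eln*) was at 0.562 and 0.372, at 2.75 and 2.30 in cluster 3 and at 6.05 and 5.92 in cluster 4.

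Of 25 transcription factor genes *Foxf1* was 2-fold higher (0.336 and 0.624 against 0.153 and 0.289, with 0 UMIs in cluster 4), and *Sox17* and *Foxp1* were lower. *Klf2*, which responds to flow in ECs, was at 21.8 and 30.7 against 28.8 and 43.3 in cluster 3 and 52.9 and 63.1 in cluster 4. Of 14 axon guidance genes *Robo3* was higher (0.619 and 0.389 against 0.216 and 0.108) and 0 were lower. Of 16 genes of secreted factors *Nmb* was higher, and *Csf1* (0.0420 and 0.0712 against 0.220 and 0.263) and *Cxcl12* (0.782 and 1.42 against 4.35 and 5.55) were lower. Of 15 glycolysis and hypoxia genes *Hilpda* alone was higher and 0 were lower.

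Other lists held few genes past the limit. Of 4 angiopoietin and Tie genes *Ptprb*, the phosphatase that acts on Tie2, was lower (2.84 and 3.31 against 10.2 and 8.94). Of 17 TGF-β and BMP genes only *Tgfb2* was lower, of 10 leukocyte adhesion genes only *Vcam1*, and of 13 Notch, 11 antigen presentation and 4 cell cycle genes none passed in either direction. Of 14 immediate-early genes 0 passed, but 11 were below both other EC clusters in each library (19.3% of all genes tested), with a median of −0.42 and −0.66 against cluster 3. *Fos* was at 24.4 and 21.6 against 39.5 and 41.6. Immediate-early genes respond to tissue dissociation, and the part of dissociation in these levels was not tested.

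**Figure D3:**
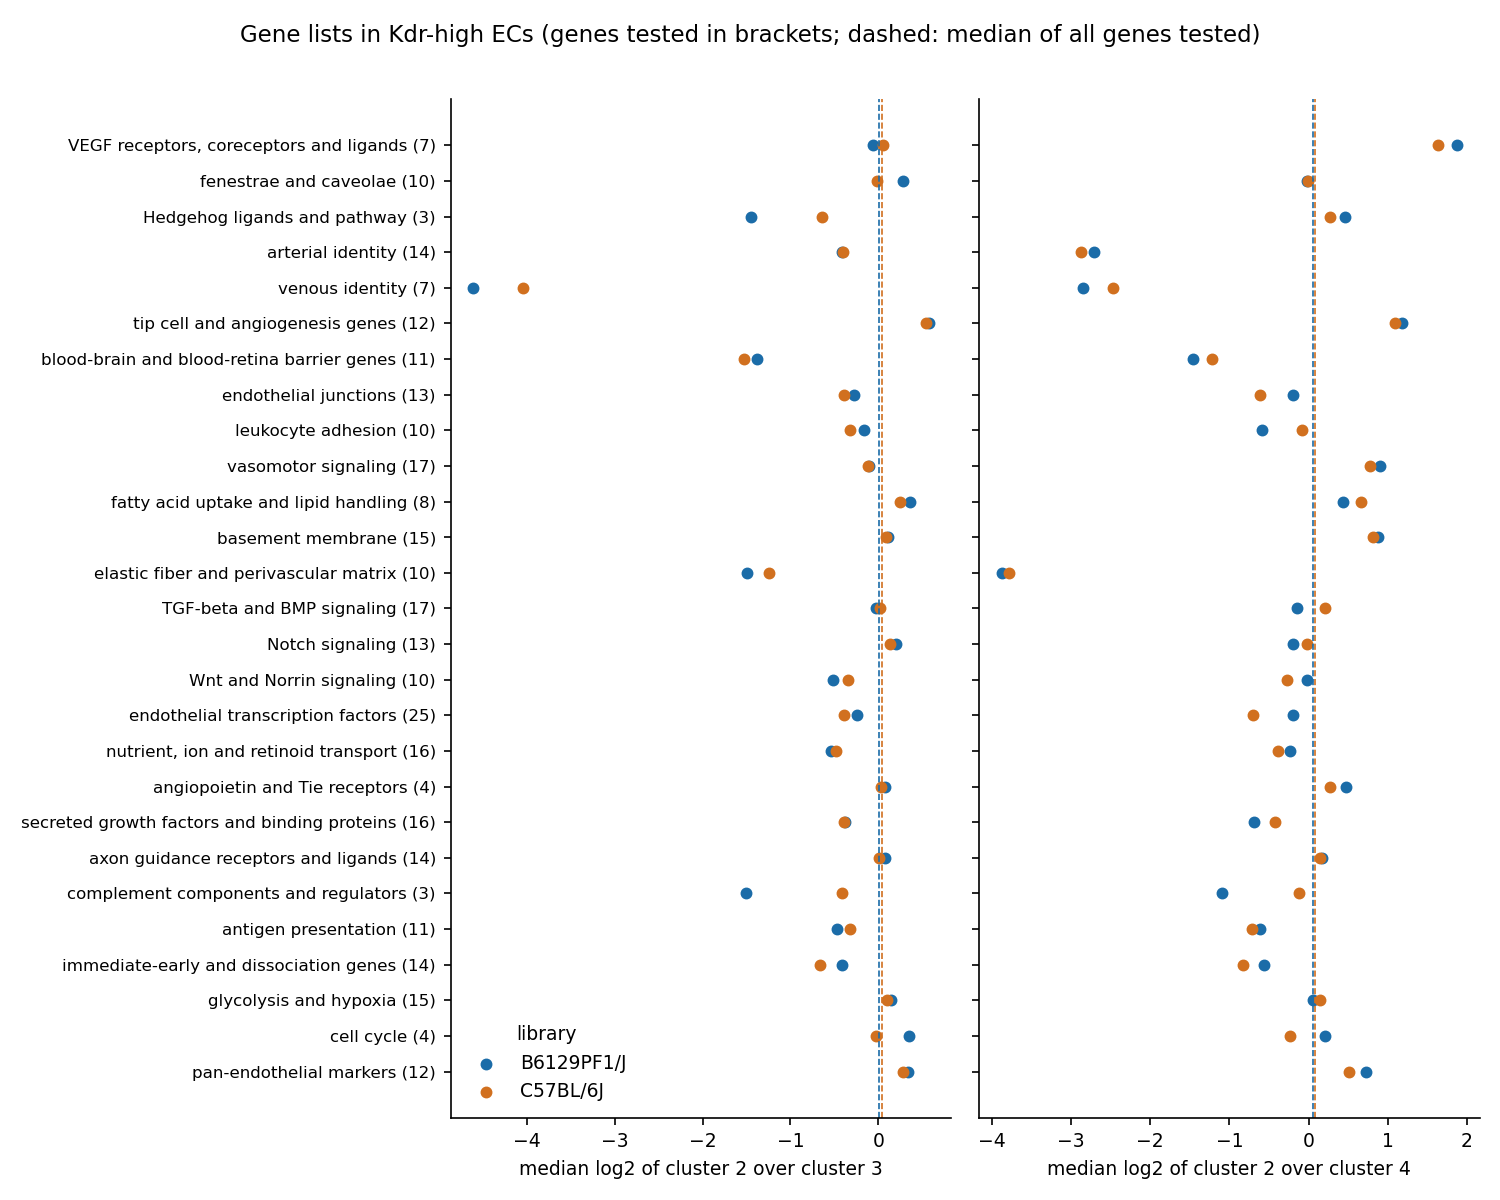
Median log2 ratio of *Kdr*-high ECs to cluster 3 and to cluster 4 (x axis) for each gene list with at least 3 genes tested (y axis), a point per library, with dashed lines at the median of all genes. The venous list lies at −4.61 and −4.04 against cluster 3, the elastic fiber list at −3.88 and −3.78 against cluster 4, and the tip cell list to the right of 0, at 0.57 and 0.54 against cluster 3.

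UMIs of other cell types were present in *Kdr*-high ECs, those of the RPE most of all. The 5 RPE markers summed to 9.34 and 7.89 per 10,000, against 7.41 and 5.51 in cluster 3, and 136 and 90 cells (36.8% and 22.3%) held at least 2 of them. *Ttr*, the transthyretin gene and an abundant RPE product, gave 1355 of these 1780 UMIs and 1130 of these 1440. Pericyte and smooth muscle markers summed to 1.84 and 2.04 (5.91 and 4.94 in cluster 3), and stromal markers to 1.09 and 2.04. Melanocyte, hematopoietic and Schwann markers summed to between 0.0997 and 0.304, with *Ptprc*, the pan-leukocyte gene, at 0. The part of these UMIs in the results above was not tested beyond the recount. That recount left out only cells with at least 2 marker genes of a single other lineage. Any RPE marker was detected in 326 of 370 and 300 of 403 *Kdr*-high ECs, so cells that were kept can still hold such UMIs.

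Within *Kdr*-high ECs *Dlk1* was the most unevenly spread gene. Its variance over its mean across cells, thinned to 1700 UMIs, was 35.7 and 26.4, against a median of 0.986 and 0.988 over 7034 genes and between 1.11 and 2.99 for the 5 markers. Next came *Ttr* (26.03 and 24.99), *Ptgds* (22.4 and 18.4), *Malat1* (18.6 and 18.7) and *Meg3* (8.65 and 9.64). The others of the first 10 were *Igfbp3*, *Mgp*, *Spp1*, *Mt1* and *Rgs5*.

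*Dlk1* encodes a transmembrane relative of the Notch ligands and lies at chr12:109452823-109463336 on the plus strand, in an imprinted domain where it is expressed from the paternal allele. *Meg3*, a long noncoding RNA expressed from the maternal allele of the same domain, lies downstream at chr12:109541001-109571726. The RefSeq promoter window of *Dlk1*, chr12:109452573-109452872 on the plus strand, is shown with the same motifs in capitals.
Dlk1 promoter: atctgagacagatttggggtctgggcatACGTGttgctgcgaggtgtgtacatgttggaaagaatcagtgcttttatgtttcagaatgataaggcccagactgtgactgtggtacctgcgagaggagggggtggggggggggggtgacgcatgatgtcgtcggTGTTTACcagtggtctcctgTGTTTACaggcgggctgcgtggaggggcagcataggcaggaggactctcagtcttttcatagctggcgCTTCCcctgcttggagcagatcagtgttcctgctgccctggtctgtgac
It holds 1 ETS core, 2 forkhead motifs and 1 hypoxia response core. At the level of the cluster *Dlk1* was at 16.2 and 4.53 UMIs per 10,000, against 2.52 and 0.111 in cluster 3, or 6.41-fold (5.87–7.00) and 40.7-fold (28.3–60.8). These intervals leave out the uneven spread of *Dlk1* over cells and are too narrow for it. *Meg3* was at 5.86 and 3.44 against 1.02 and 0.490, or 5.73-fold and 7.02-fold, and was higher in clusters 12 (8.27 and 7.19) and 7 (6.92 and 6.82), which hold no ECs. In the C57BL/6J library clusters 6 (5.45) and 8 (4.36) also held more of it.

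The *Dlk1* level came from few cells. Of the 370 and 403 *Kdr*-high ECs, 307 and 371 had 0 *Dlk1* UMIs, 27 and 17 had from 1 to 9, and 36 and 15 (9.73% and 3.72%) had at least 10. These last held 97.3% of the 3077 *Dlk1* UMIs and 93.7% of the 828, and the highest cells held 297 and 136. The limit of 10 UMIs was chosen after these values were seen, and few cells lay near it: 3 and 3 cells had 7 to 9 UMIs, and 3 and 0 had 10 to 12. Outside *Kdr*-high ECs such cells were seen in cluster 3 (11 and 1) and cluster 8 (1 and 0) alone. With the 36 and 15 cells left out of cluster 2, a setting also added after seeing the data, 92 genes were at least 2-fold higher in *Kdr*-high ECs, 86 of them among the 97.

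Cells with at least 10 *Dlk1* UMIs held *Kdr*, *Car8* and *Cd300lg* at levels close to those of cells with 0, and less *Plvap*, *Ihh* and *Esm1*. *Kdr* was at 15.6 and 13.8 UMIs per 10,000 in them and at 16.5 and 14.02 in cells with 0, *Car8* at 9.86 and 11.3 against 10.6 and 12.3, and *Cd300lg* at 6.23 and 5.16 against 5.66 and 4.55. *Plvap* was at 59.6 and 61.9 against 76.9 and 79.1. *Esm1* was at 1.95 and 2.05 against 6.38 and 7.15, 3.27-fold (2.47–4.43) and 3.49-fold (2.28–5.67) lower. *Ihh* was at 2.14 and 1.56 against 3.45 and 3.38, 1.61-fold and 2.17-fold lower.

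Across the 4397 genes with enough UMIs for this split, 16 (0.364%) were at least 2-fold higher in the *Dlk1*-high cells in each library and 25 (0.569%) were at least 2-fold lower. Many of the lower genes rested on few UMIs in the *Dlk1*-high cells, with intervals that included 1. *Hars*, for example, had 4 UMIs and 1 UMI there, with intervals of 0.935–9.61 and 0.743–172. Higher genes included *Meg3* (12.9 and 22.8 against 4.66 and 2.18), *Angpt2* (0.955 and 2.82 against 0.345 and 0.706), *Nmb* (9.44 and 5.16 against 3.55 and 1.83) and *Car4* (1.22 and 2.73 against 0.449 and 0.951). Also higher were *Pdlim1*, a cytoskeletal adaptor gene (3.80-fold and 2.96-fold), *Pde4b*, a cAMP phosphodiesterase gene (2.81-fold and 4.78-fold), and the membrane chemokine gene *Cx3cl1* (2.36-fold and 2.54-fold). *Ednrb* was 1.90-fold and 1.88-fold higher and did not reach the limit.

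Lower genes, besides *Esm1*, included *Tm4sf1*, a tetraspanin-like gene of growing ECs (4.47 and 5.75 against 9.64 and 13.2), and *Apoe* (2.18 and 5.55 against 6.09 and 11.3). The sulfotransferase gene *Sult1a1* was lower by 2.76-fold (1.64–5.01) and 2.90-fold (1.22–9.01), from 15 and 5 UMIs. *Acaa2*, of mitochondrial fatty acid oxidation, was lower by 2.41-fold (1.40–4.50) and 2.48-fold (1.19–6.23), from 14 and 7 UMIs. *Meg3* was detected in 14 of 36 and 12 of 15 *Dlk1*-high cells. The *Dlk1*-high cells were deeper, with a median of 5806.5 and 3874 UMIs against 4110 and 3434, and 47.2% and 20.0% of them held at least 2 RPE markers against 35.8% and 23.2%. Cells with *Xist* and no Y-linked UMI made up 19 of 36 and 10 of 15 of them, and cells with a Y-linked UMI and no *Xist* made up 6 and 4, so that cells of both sexes were among them.

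**Figure D4:**
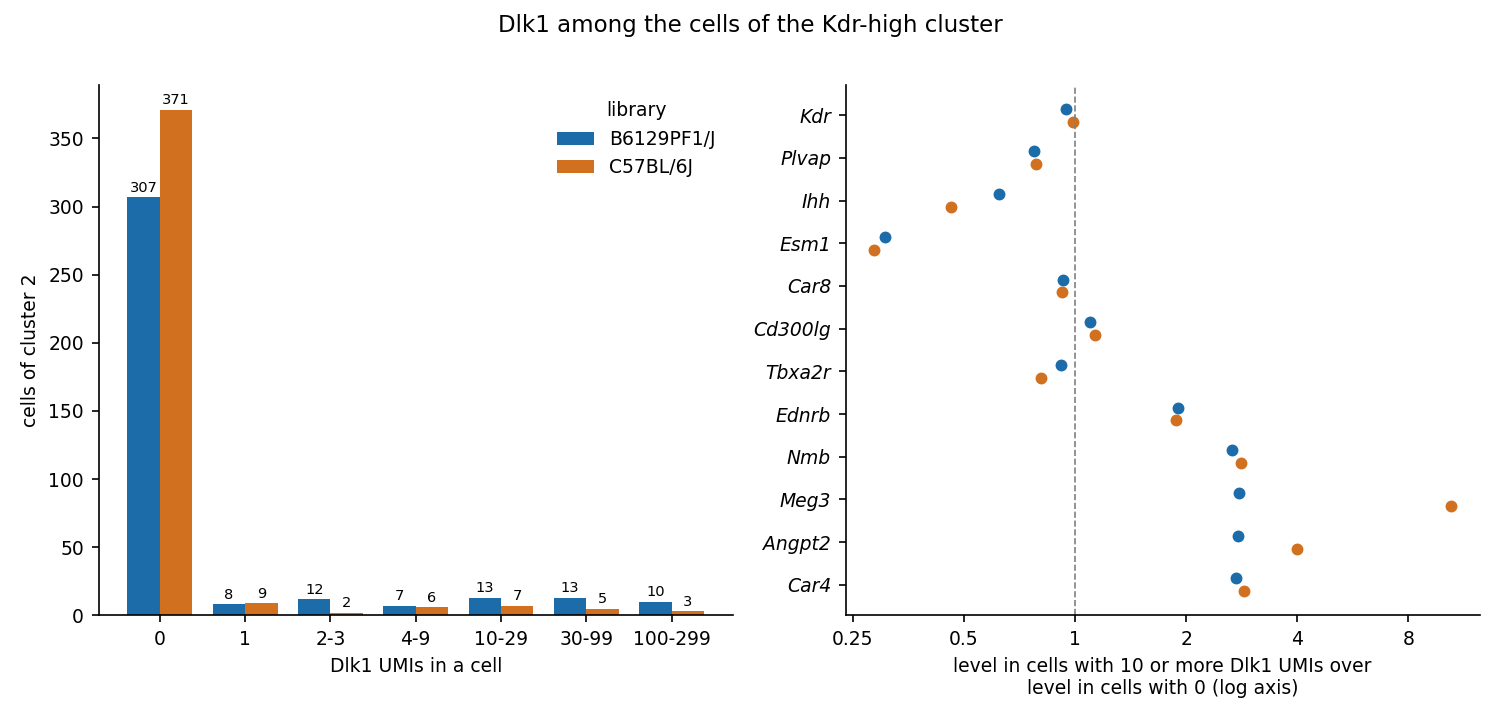
Number of *Kdr*-high ECs by *Dlk1* UMIs in the cell, per library, and the ratio of cells with at least 10 *Dlk1* UMIs to cells with 0 for 12 genes (log axis, a point per library, no intervals drawn). Most cells hold 0 *Dlk1* UMIs (307 of 370 and 371 of 403), and *Esm1* lies below 1 and *Meg3* above 1 in both libraries.

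Between the libraries *Kdr*-high ECs were alike in their markers, the larger level being 1.05 to 1.21 times the smaller (*Ihh* 1.05, 0.936–1.17, and *Kdr* 1.17). Of 7034 genes with at least 50 UMIs in the cluster, 62 (0.881%) were at least 2-fold higher in B6129PF1/J and 83 (1.18%) at least 2-fold lower, and the median log2 ratio was −0.04. After thinning the counts were 40 and 45, of which 19 and 19 were among those genes. With 1 library each, strain, mice and library cannot be told apart.

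Of the 62 genes 32 were also at least 2-fold higher in the other ECs and 21 in all other cells, and 12 carry the symbols of predicted genes. Over all 7034 genes the counts were 48 in the other ECs, 29 in all other cells and 197 predicted gene symbols. *Gm10116* was at 16.9 and 0.493 and *Gm10709* at 3.51 and 0.0821, *Gm5900* at 0.651 and 0.0164 and *Gm17300* at 0.509 and, from 1 UMI, 0.00548. All 4 are among the 6 with the largest ratio, and predicted genes of this kind can share reads with near-identical copies, which makes their counts uncertain. *Fxyd6*, of a family that modulates the sodium pump, was at 0.625 and 0.0164 in *Kdr*-high ECs (38.02-fold, 12.7–187) and at 0.303 and 0.228 in the other ECs. *Calr3*, a calreticulin gene, was at 0.388 in the B6129PF1/J library and had 1 UMI in the other (70.9-fold, 12.3–2839), with 0.128 and 0.00992 in the other ECs. *Dlk1* was also among the 62, at 3.56-fold (3.30–3.85), an interval that leaves out its uneven spread over cells and is too narrow for it.

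Genes lower in B6129PF1/J included *Fcer1g*, an immune receptor subunit gene (0.121 and 0.520), *Pllp*, the plasmolipin gene (0.0735 and 0.268), the interferon-induced GTPase gene *Iigp1* (0.115 and 0.411), *Fabp4* (0.220 and 0.783) and *Gm26632* (0.131 and 0.465). *Fcer1g* was higher in the cells that are not ECs, at 0.915 and 1.60, and *Fabp4* was detected in few *Kdr*-high ECs, as given above. Of the 83 genes 16 were also lower by this limit in the other ECs and 14 in other cells (24 and 34 of all 7034), and 3 carry predicted gene symbols. Split by sex-linked UMIs in the cell, *Ihh* was at 2.66 in cells with *Xist* alone and 3.93 in cells with Y-linked UMIs alone in the B6129PF1/J library, and at 3.64 and 2.91 in the C57BL/6J library, so the order was not shared.

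Genes of *Kdr*-high ECs were then followed in whole RPE/choroid tissue after *Ihh* had been deleted in ECs. The deposited table gives the authors' average FPKM per group and no value per mouse, so ratios are given with no test and no spread. In bulk tissue, fewer cells of a type and less RNA per cell cannot be told apart. *Ihh* was at 1.53 FPKM in wild type and 0.454 in deleted tissue, a log2 ratio (of FPKM + 0.1) of −1.56. The other markers were lower by less, with *Kdr* at 15.3 and 12.3 (−0.31), *Plvap* at 122 and 101 (−0.27), *Car8* at 4.15 and 3.23 (−0.35) and *Esm1* at 6.69 and 6.11 (−0.13).

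Of the 97 higher genes, 92 were in that table and 81 averaged at least 1 FPKM, with a median log2 ratio of −0.07 against −0.04 over all 11211 genes. Without that minimum the medians were −0.12 over the 92 genes and −0.03 over all. The minimum was taken on the mean of both groups, so that it left out *Ihh* itself, and *Foxf1* (0.707 and 1.72 FPKM) and *Upp1*, uridine phosphorylase (0.758 and 1.75), were kept by their level in the deleted tissue. For this reason no count of genes past 2-fold is given. *Ednrb* was at 46.7 and 33.3 FPKM (−0.49), *Car4* at 1.27 and 0.766 (−0.66), *Hilpda* at 5.46 and 8.13 (0.57), and *Dlk1* at 2.12 and 2.03 (−0.06). The 12 pan-endothelial genes had a median of −0.27, with 11 lower, where 6655 of all 11211 genes were lower. The part of EC content in the values above was not tested.

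**Figure D5:**
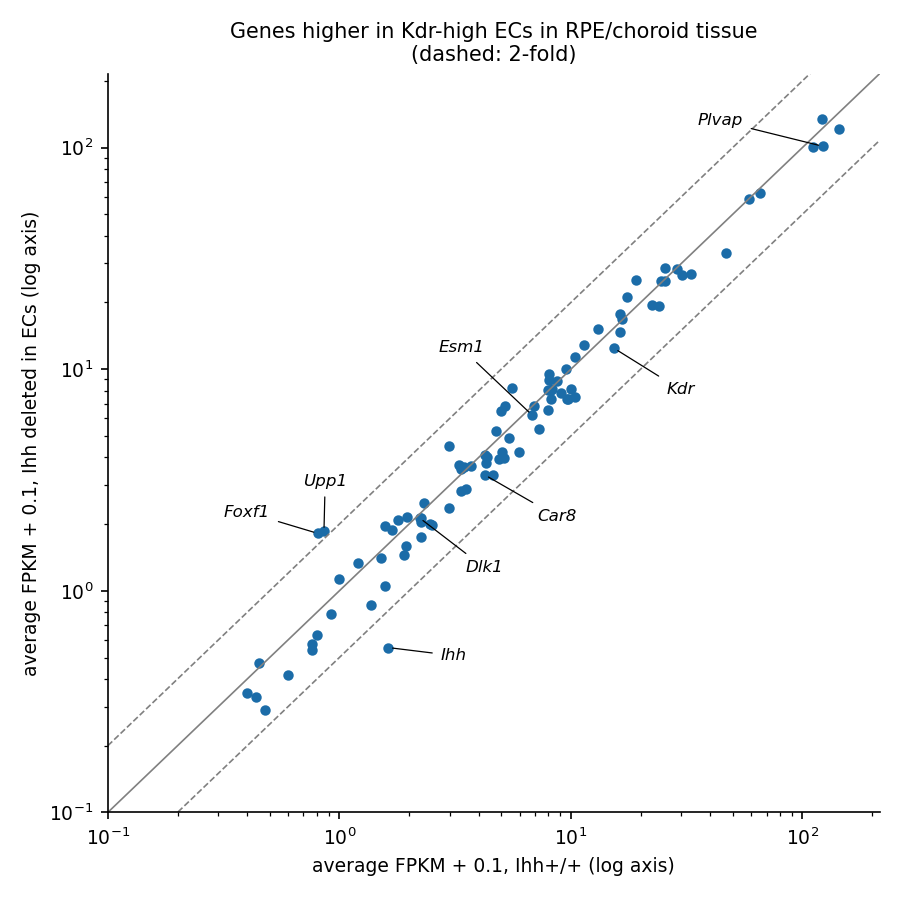
Authors' average FPKM plus 0.1 in RPE/choroid tissue of wild-type mice (Ihh+/+, x axis) and of mice with *Ihh* deleted in ECs (y axis), both axes log, for *Kdr* and the genes at least 2-fold higher in *Kdr*-high ECs that the table holds. The solid line marks equality and the dashed lines 2-fold, with *Ihh* below the lower line (1.53 and 0.454 FPKM) and *Foxf1* and *Upp1* above the upper line.

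Sorted ECs of whole tissues gave a further reading of the same genes, in a table limited to 99 genes that the authors had selected as high in choroid ECs, so its direction is not independent of the choroid. Its choroid column is the authors' average of libraries not analysed here. Of the 97 genes 9 were in it (9.28% of the 97 and 9.09% of the 99): *Adamtsl2*, *Add2*, *Dlk1*, *Esm1*, *Fam101a*, *Ihh*, *Nmb*, *Pdia5* and *Robo3*. Only 42 of the 99 were among the 7560 genes tested between the EC clusters, and 1 of these was at least 2-fold lower in *Kdr*-high ECs, where 1.28% and 2.16% of all genes tested passed in each direction. *Esm1* averaged 72.9 FPKM in choroid ECs and 13.3 in lung ECs, the next highest tissue. *Nmb* averaged 50.5 and, in heart, 4.13, *Pdia5* averaged 105 and, in lung, 13.1, and *Dlk1* averaged 20.9 and, in lung, 0.142.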

How the data were processed

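The deposited scRNAseq files were read as whole-number UMI counts per gene and cell, which per the labels the authors made with Cell Ranger on mm10 and clustered with Seurat 2.1. The deposited cell annotation gave clusters, and the mitochondrial fraction per cell (0 to 1), which the authors computed. Filters of 1700 UMIs, 600 genes and 10% mitochondrial UMIs removed 0 deposited cells, and doublets were not called again. Counts of 16426 genes were summed per cluster and library, with exact Poisson, Clopper-Pearson and conditional ratio intervals at 95%, and a count of 0 was set to 3 in ratios. Cells were thinned to 1700 UMIs with a fixed seed.

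The deposited bulk tables hold average FPKM per group, which the authors made from libraries processed, per the labels, with STAR 2.4.0f1, SAMtools 0.1.19 and Cufflinks 2.0.2. A pseudocount of 0.1 FPKM and a minimum average of 1 FPKM were used. Depth per library is unknown for these tables. Their fold changes and p-values were the authors' own and were not used.

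Genes were named by rule: the 5 markers, the 20 with the largest and the 10 with the smallest ratio to the other ECs past 2-fold in both libraries, 10 over every cluster, 6 per direction between libraries, and up to 6 per list. A few items that the rule names are not reported here. The cells and the 27 gene lists were chosen with earlier results of these data known. The count rule was tested on simulated data of 7500 genes, where it recovered 86% of genes raised 3-fold and 100% of genes raised 5-fold, 60% and 90% of genes lowered by the same folds, and 0 unchanged genes. The simulated counts were Poisson draws around the pooled mean of the EC clusters, without spread between cells or mice. They therefore speak to counting error only and cannot give the rate of false calls in real cells. Alternatives were other fold limits and count minimums, thinning, equal weight per cell, median-of-ratios scaling and left-out cells. Tables were handled with pandas 2.3.3 and numpy 2.4.6, intervals came from scipy 1.17.1 and plots from matplotlib 3.10.9 (Python 3.11.15). The bulk table of cultured cells was not used here.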

Additional observations from a re-analysis of the deposited data

How the results depend on the processing

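Alternatives were run for the gene counts, the marker ratios and shares, the share of cells and the bulk median. A change of direction was possible for the marker ratios and the bulk median only, since a count or share has no direction, and none occurred. Of 132 alternative values, 51 stayed within the limits set for a move. For the gene counts these limits compare totals, not which genes passed. List medians, other single genes and the *Dlk1* split had no alternatives. With a fold limit of 1.5 or 3 in place of 2, the genes higher than both other EC clusters numbered 284 or 20 (97 at 2-fold), those lower 337 or 94 (163), those higher than every other cluster 90 or 9 (37), and those higher or lower in B6129PF1/J 309 or 33 (62) and 396 or 10 (83). With a minimum of 200 UMIs these were 60 higher, 70 lower, and 17 and 18 between libraries. With a minimum of 20 UMIs they were 252 lower, and 177 and 221 between libraries. Thinned cells gave 97 lower, and 40 and 45 between libraries. Equal weight per cell gave 152 higher. The B6129PF1/J library alone gave 157 higher and 268 lower, and the C57BL/6J library alone 168 and 302. Without cells holding at least 2 marker genes of another lineage, which kept 223 of 370 and 291 of 403 *Kdr*-high ECs, 9 genes were above every other cluster. The lowest marker ratio (1.86) was 2.83 after thinning, 2.58 with equal weight, 2.51 without those cells, 1.53 in cells with *Xist* alone and 1.48 in cells with Y-linked UMIs alone. The lowest share of cells with a marker (60.3%) was 39.5% after thinning. Leaving out *Dlk1*-high cells, added after seeing the data, kept all 5 counts within 1.5 times their values. For settings other than the fold limit and the UMI minimum the cause was not tested. No paired analysis was possible because each strain had 1 library and the bulk tables hold averages. Depth limits the lower genes, some of which had under 10 UMIs in *Kdr*-high ECs, and the spread between mice is unknown.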
